A study of Danio rerio with 4 samples.

Results

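The gene *mmp9* encodes matrix metalloproteinase 9, and it was set here beside those genes of its families that were listed as differing from uninjured retina. Family genes were chosen as the genes whose symbol starts with mmp, timp or adam. Of 69 such genes in the annotation, 6 were in at least 1 of the 6 lists of genes differing from uninjured zebrafish retina: *mmp9*, *mmp2*, *mmp14b*, *mmp15a*, *adam8b* and *timp2b*. They are 6 of the 2543 genes listed in all. The RNA came from whole retina of wild-type zebrafish aged 10 months, and there was 1 library for each of 4 conditions. These were retina at 12 hours after injury with a needle (12 hpi), retina at 4 days after injury (4 dpi), retina at 4 dpi from fish kept in 10 μM cyclopamine, which inhibits Smo, the membrane protein that passes on Hedgehog signals, for the 4 days, and uninjured retina. The other 3 libraries are labelled as having no agent and not as having the vehicle, so the drug and its vehicle cannot be told apart. How many retinas went into a library, and how deeply it was sequenced, is not given in the sources used here. With 1 library per condition, the values below have no replicate error, differences were not checked against replicates, and p-values were not computed.

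Matrix metalloproteinases are zinc-dependent enzymes that cleave proteins of the extracellular matrix as well as growth factors, cytokines and their receptors. They are made as inactive proenzymes, and tissue inhibitors of metalloproteinases (the timp genes) bind their active sites. Apart from the adamts genes, which the choice by symbol also takes in, the adam genes encode mostly membrane-bound relatives. Many of these release the outer part of other membrane proteins from the cell surface. In zebrafish retina, Müller glia answer injury by dividing to give progenitors of new neurons, and the study asked what *mmp9* does in that response and how it relates to Hedgehog and Notch signaling.

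The *mmp9* transcript can be identified by the primers of the study, which are shown because they mark the ends of its coding sequence and the stretch used for its quantification by PCR. Capitals mark the start codon in the forward cloning primer and the complement of the stop codon in the reverse cloning primer. The gene lies on the plus strand of chromosome 8, from 24260272 to 24274708 in build GRCz10.
mmp9 coding sequence, forward: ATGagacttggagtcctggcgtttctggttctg
mmp9 coding sequence, reverse: CTAtagagaatgaatgtcactgcatttcag
mmp9 quantitative PCR, forward: ggagaaaacttctggagacttg
mmp9 quantitative PCR, reverse: cactgaagagaaacggtttcc

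The listed family members were all in lists of higher genes, and none was in a list of lower genes. The lists were filtered on an unadjusted p-value of the submitters' own test of the libraries, and none of the 9 member rows with values carries the tables' mark of significance. At 12 hpi 3 members were listed as higher (*mmp9*, *timp2b* and *adam8b*), which is 4.35% of the 69 family genes, where 1.31% of all 29460 annotated genes were. At 4 dpi 5 members were listed as higher (*mmp9*, *mmp14b*, *mmp2*, *adam8b* and *mmp15a*), which is 7.25% of the family, against 3.03% of all annotated genes. With cyclopamine 3 members were listed as higher (*mmp9*, *mmp14b* and *adam8b*), again 4.35% of the family, against 2.22% of all annotated genes. The lists of lower genes held 0 members, where they held 0.754% of annotated genes at 12 hpi, 1.95% at 4 dpi and 2.54% with cyclopamine. Most listed genes were higher at both times without drug, namely 63.8% of those listed at 12 hpi and 60.9% of those listed at 4 dpi, while 47.1% were higher with cyclopamine. At least 1 list held 8.70% of the family and 8.63% of annotated genes. Each of these shares rests on few genes, and no test was made of them. By subfamily, 4 of 24 mmp genes, 1 of 5 timp genes, 1 of 17 adam genes and 0 of 23 adamts genes were listed. The other 63 family genes have no value in the tables used here, so their levels are unknown and they cannot be called unchanged.

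*mmp9*, a secreted gelatinase, had 47.8 FPKM at 12 hpi, against 0.363 FPKM in uninjured retina. FPKM corrects the number of fragments for transcript length and for the size of the library, so levels of different genes can be set side by side. At 4 dpi *mmp9* had 85.7 FPKM, against the same 0.363 FPKM in uninjured retina. Its level was below 1 FPKM before injury and above the median level of the genes listed as higher at each later time, which was 9.88 FPKM at 12 hpi and 16.2 FPKM at 4 dpi. The difference was 132-fold at 12 hpi and 236-fold at 4 dpi. With 0.1 FPKM added to each value to limit the weight of low levels, the log2 ratios to uninjured retina were 6.69 at 12 hpi and 7.53 at 4 dpi. Both ratios rest on 1 low value in the shared uninjured library. With 1 FPKM added, the log2 ratios were 5.16 at 12 hpi and 5.99 at 4 dpi. The value at 12 hpi is of 1 of the 2 annotated transcripts (ENSDART00000062845) and the value at 4 dpi is of the gene (ENSDARG00000042816).

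**Figure D1:**
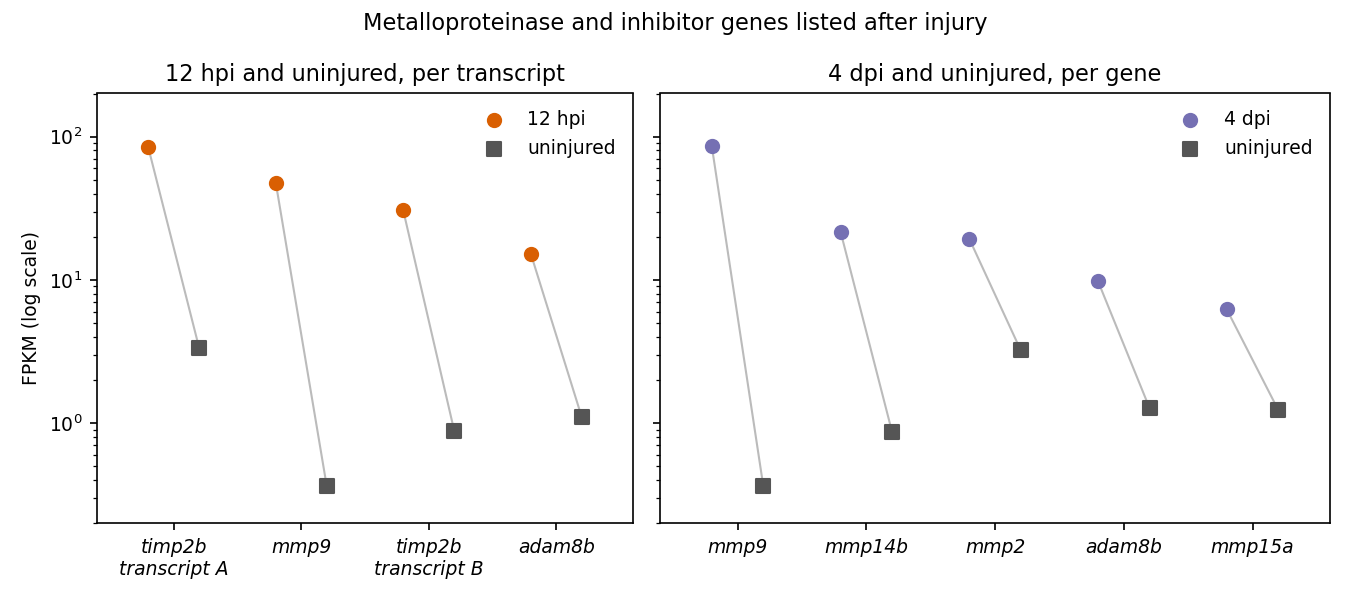
FPKM on a log axis of each listed metalloproteinase and inhibitor gene, with 1 point per library: 12 hpi (circles) and uninjured (squares) on the left, per transcript, and 4 dpi (circles) and uninjured (squares) on the right, per gene. Transcript A of *timp2b* is ENSDART00000166855 and transcript B is ENSDART00000102062. Each later value lies above its uninjured value, and *mmp9* has the lowest uninjured level of the genes shown, 0.363 FPKM, and the highest level at 4 dpi, 85.7 FPKM.

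The other secreted gelatinase, *mmp2*, had 19.3 FPKM at 4 dpi, against 3.22 FPKM in uninjured retina. This is a 6.01-fold difference, with a log2 ratio of 2.55. Both gelatinases carry a fibronectin type II domain in the domain annotation of the tables, next to the peptidase M10 catalytic domain and the hemopexin repeat that all 4 mmp members have. *mmp2* had the higher uninjured level of the pair and *mmp9* the higher level at 4 dpi. *mmp2* (ENSDARG00000017676) lies on the minus strand of chromosome 7, from 35138572 to 35161424, and was in no 12 hpi list.

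Membrane-type metalloproteinases are anchored at the cell surface, and in mammals MMP14 activates the proenzyme of MMP2 there. *mmp14b* had 21.7 FPKM at 4 dpi, against 0.869 FPKM in uninjured retina, a 25.0-fold difference with a log2 ratio of 4.49. *mmp15a*, which encodes another enzyme of this type, had 6.22 FPKM at 4 dpi, against 1.23 FPKM in uninjured retina, a 5.04-fold difference with a log2 ratio of 2.24. Both carry a membrane-type C-terminal domain in the annotation and lack the fibronectin type II domain of the gelatinases. The uninjured levels of these 2 genes were both close to 1 FPKM, and *mmp14b* had the higher level at 4 dpi. *mmp14b* (ENSDARG00000008388) is on the plus strand of chromosome 2, from 38178989 to 38201313, and *mmp15a* (ENSDARG00000051962) is on the minus strand of chromosome 25, from 17462998 to 17483301. Neither was in a 12 hpi list.

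*adam8b*, whose mammalian counterpart ADAM8 is found mainly on leukocytes, was the only adam gene listed and was higher in every comparison. Its listed transcript had 15.3 FPKM at 12 hpi, against 1.1 FPKM in uninjured retina, a 13.9-fold difference with a log2 ratio of 3.68. As a gene it had 9.78 FPKM at 4 dpi, against 1.27 FPKM in uninjured retina, a 7.67-fold difference with a log2 ratio of 2.85. The gene (ENSDARG00000057644) has 2 annotated transcripts on the minus strand of chromosome 12, from 9059119 to 9094839. In uninjured retina the level of the gene exceeded that of the listed transcript by 0.174 FPKM.

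*timp2b* was the only inhibitor gene listed, and only at 12 hpi. TIMP2 in mammals inhibits active metalloproteinases and also takes part with MMP14 in the activation of the MMP2 proenzyme. Both annotated *timp2b* transcripts were listed as higher. Transcript ENSDART00000166855 had 84.4 FPKM at 12 hpi, against 3.33 FPKM in uninjured retina, and transcript ENSDART00000102062 had 30.6 FPKM at 12 hpi, against 0.882 FPKM in uninjured retina. Their log2 ratios were 4.62 and 4.96, and their sum was 114.9 FPKM at 12 hpi, against 4.22 FPKM in uninjured retina, a 27.3-fold difference. The second transcript made up 26.6% of the sum at 12 hpi and 20.9% in uninjured retina. How reads shared by the 2 transcripts were divided is an estimate, so this small gap in shares carries an error that is not known here. Summed over its transcripts, *timp2b* had the highest level of the members at 12 hpi. The gene (ENSDARG00000075261) lies on the minus strand of chromosome 3, from 57562440 to 57595994.

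Set among all genes listed as higher, *mmp9* was near the top by ratio and not by level. Among 780 genes of the higher list at 4 dpi that were above 0 in uninjured retina, *mmp9* ranked 1 by log2 ratio with 0.1 FPKM added and with none added, and ranked 3 with 1 FPKM added. At 12 hpi it ranked 4 of 270 such genes with 0.1 FPKM added, 7 with 1 FPKM added, and 26 with none added. By level it ranked 195 of 893 listed genes at 4 dpi and 66 of 386 at 12 hpi. The median log2 ratio of the genes above 0 in uninjured retina was 2.63 at 12 hpi and 2.52 at 4 dpi. The median of the members was 4.62 over 3 genes at 12 hpi and 2.85 over 5 genes at 4 dpi. These are different sets of genes, each filtered to be higher, so their medians do not compare the times. With 0.1 FPKM added, *mmp14b* ranked 72, *adam8b* 289, *mmp2* 376 and *mmp15a* 516 of 780 at 4 dpi, so *mmp2* lay near the middle of the list and *mmp15a* in its lower part. At 12 hpi *timp2b* ranked 28 and *adam8b* 55 of 270. Another 116 genes at 12 hpi and 113 at 4 dpi were listed at 0 in uninjured retina, and their ratios depend wholly on the amount added. With these genes included, *mmp9* ranked 10 of 893 at 4 dpi with 0.1 FPKM added and 5 with 1 FPKM added, and 20 of 386 at 12 hpi with 0.1 FPKM added and 13 with 1 FPKM added. The median log2 ratio with 0.1 FPKM added was then 3.25 at 12 hpi and 2.69 at 4 dpi.

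**Figure D2:**
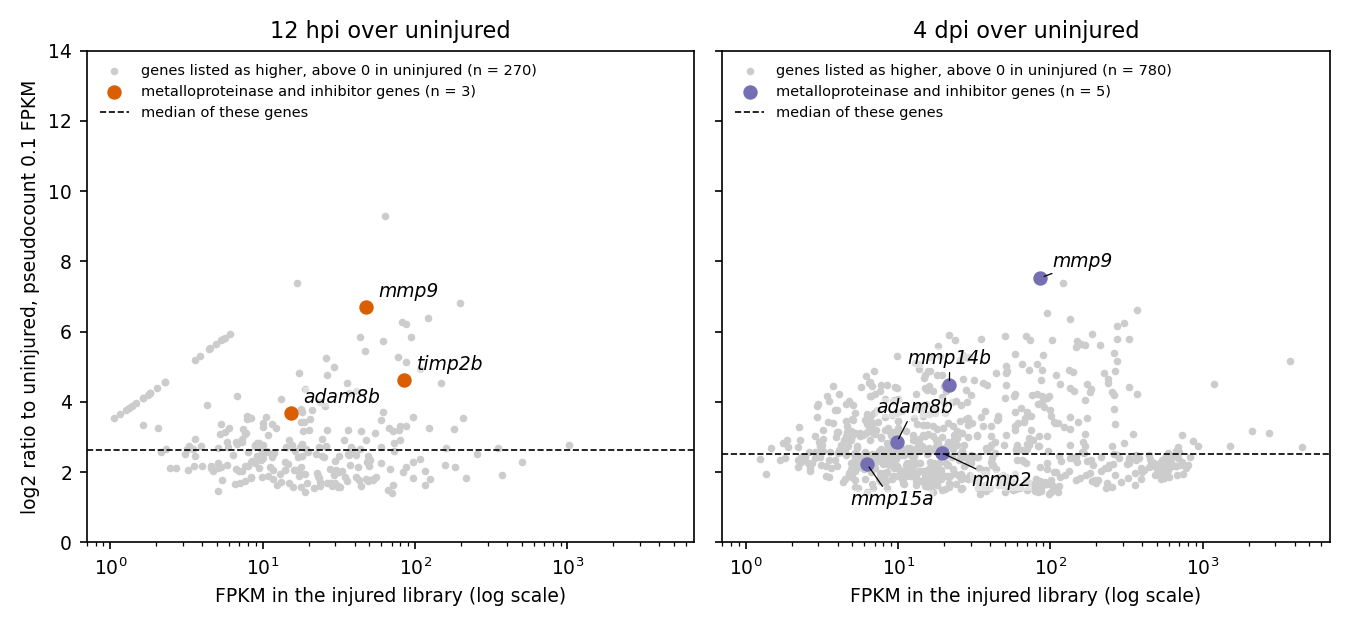
Log2 ratio to uninjured retina, with 0.1 FPKM added, against FPKM in the injured library on a log axis, for genes listed as higher and above 0 FPKM in uninjured retina: 270 genes at 12 hpi (left) and 780 genes at 4 dpi (right), with 1 point per gene. Coloured points are the metalloproteinase and inhibitor genes, and the dashed line is the median of the genes shown (2.63 at 12 hpi and 2.52 at 4 dpi). *mmp9* lies far above the median in both panels, and *mmp2*, *adam8b* and *mmp15a* lie close to it at 4 dpi.

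Only *mmp9* and *adam8b* had values at both times, and their listed values differed in which time was the higher. The *mmp9* level at 4 dpi was 1.79 times that of its transcript at 12 hpi, and the *adam8b* level at 12 hpi was 1.56 times that at 4 dpi. The 12 hpi values are of 1 transcript and the 4 dpi values of the whole gene. The *mmp9* ratio is therefore an upper limit, which leaves its order of the times unsettled, and the *adam8b* ratio is a lower limit, if the separately made tables share a scale. The uninjured values bear on this, since those of the gene were at least the sum of its listed transcripts in 185 of 186 genes present in both tables, and equal in all 94 genes with 1 annotated transcript. Of the 118 genes listed as higher at both times, the median log2 ratio of 4 dpi to 12 hpi was 0.11, and the quartiles were -0.60 and 0.53. *mmp9* was at 0.84, with 19 genes above it, and *adam8b* was at -0.64, with 28 genes below it.

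The genes nearest to *mmp9* over its log2 ratios at 12 hpi and 4 dpi, which rest on 3 libraries, were mostly crystallins, the structural proteins of the lens. In order of distance they were *crygn1*, *fabp11a*, *crygm7*, *crygm2b* and *crygs2*. The fatty acid binding protein gene *fabp11a* had 93.6 FPKM at 12 hpi and 135.1 FPKM at 4 dpi, against 1.54 FPKM in uninjured retina. *crygs2* had 61.7 FPKM at 12 hpi and 69.2 FPKM at 4 dpi, against 1.07 FPKM in uninjured retina. *crygn1* had 22.6 FPKM at 12 hpi and 18.0 FPKM at 4 dpi and was listed at 0 in uninjured retina, as were *crygm7* and *crygm2b*. The place of those 3 genes depends on the 0.1 FPKM that was added: with 1 FPKM added *fabp11a* and *crygs2* were the nearest, *crygn1* ranked 5, *crygm7* ranked 20 and *crygm2b* ranked 23. Some crystallin genes of the gamma M group are close copies of each other, so the division of reads among them may be uncertain. Their sequences were not compared here. Likeness over so few libraries is a description and not a relation between the genes.

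**Figure D3:**
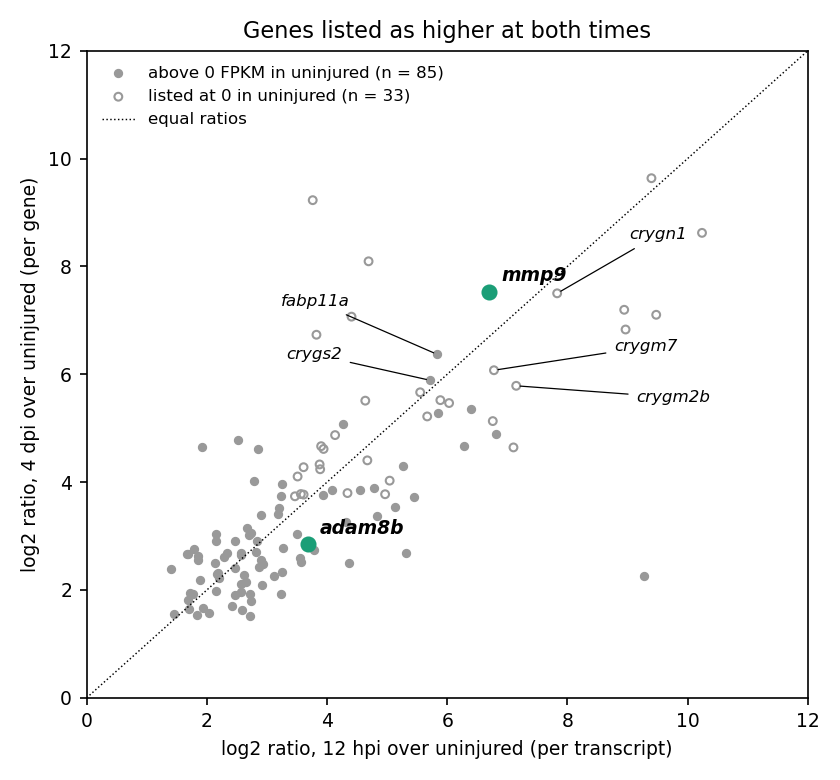
Log2 ratio to uninjured retina at 4 dpi (per gene) against that at 12 hpi (per transcript), with 0.1 FPKM added, for the 118 genes listed as higher at both times. Filled points are the 85 genes above 0 FPKM in uninjured retina, open points are the 33 genes listed at 0 there, and the dotted line marks equal ratios. *mmp9* (6.69 at 12 hpi and 7.53 at 4 dpi) lies above the line and *adam8b* (3.68 at 12 hpi and 2.85 at 4 dpi) lies below it.

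The cyclopamine lists hold gene identifiers without levels, so they show only the direction of each call against uninjured retina. *mmp9*, *mmp14b* and *adam8b* were listed as higher both with cyclopamine and at 4 dpi without it. *mmp2* and *mmp15a* were listed as higher at 4 dpi and were in neither cyclopamine list. With 0.1 FPKM added, these 2 had the smallest ratios of the members at 4 dpi. With 1 FPKM added, the log2 ratio of *adam8b* at 4 dpi (2.24) was just below that of *mmp2* (2.27). No member was listed with cyclopamine alone, and *timp2b* was in no list at 4 dpi with or without the drug. Both 4 dpi comparisons share the uninjured library. Absence from a list does not show that a level was unchanged, and whether any member differed between retina with and without cyclopamine was not tested, because the levels with cyclopamine are not used here.

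Genes around the metalloproteinases were taken from lists of their pathway. One list was of AP-1, NF-kB, STAT3 and ETS factors, kinds of transcription factor known to act at mammalian metalloproteinase promoters. It also held *egr1*, which belongs to none of these kinds, and *nfkbiaa* and *nfkbiab*, which encode inhibitors of NF-kB. Of its 29 genes, 8 were listed as higher at 12 hpi and none as lower. These 8 were *atf3*, *fosl1a*, *fosab*, *jun*, *junba*, *junbb*, *nfkb2* and *stat3*. No ETS gene of the 29 was listed in any comparison with uninjured retina. The higher lists held 1.31% of all annotated genes at 12 hpi, 3.03% at 4 dpi and 2.22% with cyclopamine. Those at 12 hpi are of transcripts, and the difference between the times was not tested. The AP-1 subunit gene *jun* had 147.1 FPKM at 12 hpi, against 6.21 FPKM in uninjured retina, and *fosab* had 77.3 FPKM, against 1.89 FPKM. *stat3*, which encodes a transducer of cytokine signals, had 79.5 FPKM at 12 hpi, against 7.84 FPKM in uninjured retina. At 4 dpi 3 of the 29 were listed as higher (*jun*, *junbb* and *atf3*), and only *egr1*, which is outside the named kinds, was listed as lower. With cyclopamine 5 were listed as higher and *egr1* again as lower. The median log2 ratio of the 8 higher genes was 3.66 at 12 hpi, where it was 2.63 for all listed higher genes above 0 in uninjured retina and 3.25 with those at 0 included.

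Matrix proteins include known cleavage targets of these enzymes. Of 62 genes for collagens, laminins and other matrix proteins, none was in the higher list and 2 were in the lower list at 12 hpi, while 9 were in the higher list and none in the lower list at 4 dpi. With cyclopamine 5 of the 62 were in the higher list, 3 of which were also higher at 4 dpi, and none was in the lower list. The higher list as a whole held 386 genes at 12 hpi and 893 at 4 dpi. Of annotated genes, the higher lists held 1.31% at 12 hpi, 3.03% at 4 dpi and 2.22% with cyclopamine. In the same order, the lower lists held 0.754%, 1.95% and 2.54%. The difference between the times was not tested for this group. *fn1a*, a fibronectin gene, had 20.1 FPKM at 4 dpi, against 0.828 FPKM in uninjured retina. *col1a2*, a chain of type I collagen, had 12.8 FPKM at 4 dpi, against 1.01 FPKM in uninjured retina. The basement membrane collagen genes *col4a1* and *col4a2*, chains of a substrate of gelatinases, had smaller log2 ratios of 1.71 and 1.87 at 4 dpi. Another type IV collagen gene, *col4a4*, had a larger one of 3.30, from 2.25 FPKM at 4 dpi against 0.139 FPKM in uninjured retina. The 2 genes listed as lower at 12 hpi were *col15a1b*, with 5.40 FPKM at 12 hpi against 21.3 FPKM in uninjured retina, and *lamc3*, a laminin chain gene, with 0.472 FPKM against 2.26 FPKM. The 9 higher genes summed to 72.0 FPKM at 4 dpi, against 9.76 FPKM in uninjured retina. This sum covers only genes of the higher list, so the filter sets its direction. It does not describe the 62 genes as a whole. The median log2 ratio of the 9 genes was 2.54. It was 2.52 for all listed higher genes above 0 in uninjured retina, and 2.69 with those at 0 included.

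Among other proteases, cathepsins work mainly in lysosomes. Of 19 cathepsin and cystatin genes, 1 was listed as higher at 12 hpi (*ctsla*), 7 at 4 dpi and 9 with cyclopamine. None was listed as lower. Those listed with cyclopamine include the cystatin gene *cst14a.2*, and the others are cathepsin genes. The higher lists as a whole also differ in length, with 1.31% of annotated genes at 12 hpi, 3.03% at 4 dpi and 2.22% with cyclopamine, and the difference between the times was not tested. *ctsk*, whose mammalian counterpart degrades collagen, had 28.4 FPKM at 4 dpi, against 0.642 FPKM in uninjured retina, a log2 ratio of 5.26. Of 18 genes for plasminogen, its activators and their serpin inhibitors, 3 were listed as higher at 12 hpi, among them *serpinb1* with 9.09 FPKM at 12 hpi against 1.18 FPKM in uninjured retina. At 4 dpi 2 of the 18 were listed as higher, *serpinb1* with 31.4 FPKM against 1.18 FPKM in uninjured retina, and the plasminogen activator gene *plaua* with 1.01 FPKM, listed at 0 in uninjured retina. Another group of 17 genes held the membrane-bound inhibitor *reck*, clearance receptors and thrombospondins, and also *a2ml*, *lcn15*, *bsg*, *cd44a* and *cd44b*. The only one of the 17 listed was *lrp1ba*, a gene of the family of endocytic receptors. It was lower, with 2.79 FPKM at 4 dpi against 9.62 FPKM in uninjured retina, and was also in the lower list with cyclopamine. Of 23 inflammatory and sheddable ligand genes, 3 were listed as higher at 12 hpi. These were the chemokine genes *cxcl18b*, with 107.7 FPKM against 3.40 FPKM in uninjured retina, and *cxcl8b.1*, with 1.38 FPKM and listed at 0 in uninjured retina, and the growth factor gene *hbegfa*, with 8.33 FPKM against 0.621 FPKM. At 4 dpi 2 of the 23 were listed as higher, *hbegfa* with 4.23 FPKM and *cxcl8b.1* with 1.79 FPKM. With cyclopamine the same 3 genes as at 12 hpi were listed as higher.

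**Figure D4:**
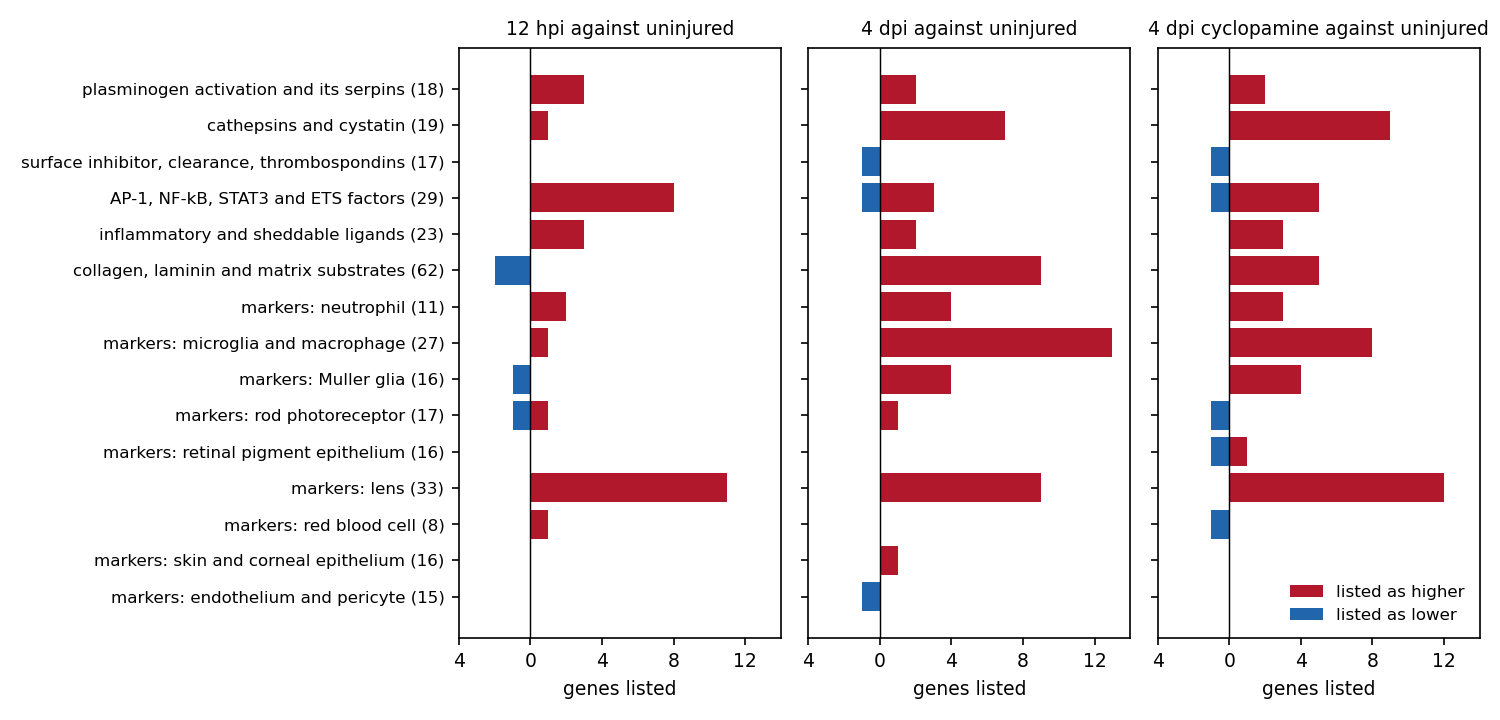
Number of genes of each pathway or marker list (list size in parentheses) listed as higher (to the right of 0) and as lower (to the left of 0) when set against uninjured retina. The panels are 12 hpi on the left, 4 dpi in the middle and cyclopamine on the right. Genes of the AP-1, NF-kB, STAT3 and ETS list were listed most at 12 hpi (8 of 29, none of them an ETS gene). Those of the cathepsin and cystatin list were listed most with cyclopamine (9 of 19), and matrix genes most at 4 dpi (9 of 62). The comparisons with uninjured retina differ in how many genes they list, and the 12 hpi comparison is per transcript.

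Markers of several cell types were listed beside the members, and in whole retina more cells of a type cannot be told apart from more RNA per cell. The higher lists held 1.31% of annotated genes at 12 hpi, 3.03% at 4 dpi and 2.22% with cyclopamine. The lower lists held 0.754%, 1.95% and 2.54%. Marker counts at different times are therefore from lists of different length, those at 12 hpi being of transcripts, and their differences were not tested. Of 27 microglia and macrophage markers, 1 was listed as higher at 12 hpi (*coro1a*) and 13 at 4 dpi, where they summed to 2987 FPKM, against 350.9 FPKM in uninjured retina, with 2111 FPKM at 4 dpi from *apoeb* alone. The macrophage gene *mpeg1.1* had 18.5 FPKM at 4 dpi, against 2.71 FPKM in uninjured retina. With cyclopamine 8 of these markers were listed as higher. Of 11 neutrophil markers, 2 were listed as higher at 12 hpi (30.8 FPKM in sum, against 3.10 FPKM in uninjured retina), 4 at 4 dpi (40.5 FPKM, against 6.89 FPKM) and 3 with cyclopamine. Each marker sum in this paragraph covers only the markers listed at that time. The filter therefore sets its direction, and sums of different times are of different genes. The neutrophil markers *lect2l* and *srgn*, listed at both times, had 6.44 and 24.4 FPKM at 12 hpi, per transcript. At 4 dpi they had 4.32 and 19.2 FPKM, per gene. The defining neutrophil genes *mpx* and *lyz* were in none of the lists used here. Of 16 Müller glia markers, 1 was listed as lower at 12 hpi (*slc1a2b*) and 4 as higher at 4 dpi, among them *gfap* with 84.5 FPKM at 4 dpi, against 10.2 FPKM in uninjured retina, and 4 were listed as higher with cyclopamine. Of 33 lens markers, 11 were listed as higher at 12 hpi (322.5 FPKM in sum, against 3.04 FPKM in uninjured retina, with 9 of them listed at 0 there), 9 at 4 dpi (174.8 FPKM, against 3.04 FPKM) and 12 with cyclopamine. Few markers of other types were listed. At 12 hpi these were 2 of 17 for rods, with *nr2e3* higher and *rcvrna* lower, and 1 of 8 for red blood cells, which was higher. At 4 dpi they were 1 of 17 for rods and 1 of 16 for skin and cornea, both higher, and 1 of 15 for endothelium and pericytes, which was lower. With cyclopamine they were 1 for rods and 1 for red blood cells, both lower, and 2 of 16 for retinal pigment epithelium, 1 in each direction. The labelled tissue could be checked only with listed genes, and *rcvrna*, a photoreceptor gene, had 63.6 FPKM at 12 hpi, against 237.4 FPKM in uninjured retina. What part these cells had in the levels of *mmp9* and the other members was not tested.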

How the data were processed

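Whole-retina RNA-seq of 4 libraries was used, with 1 library per condition. Per the submitters' processing notes, the tools were Bowtie2 2.2.2, TopHat2 2.1.0 and Cufflinks 2.2.1 on build GRCz10. The deposited values are FPKM, of transcripts at 12 hpi and of genes at 4 dpi, set next to 1 shared uninjured library. The lists keep features with an unadjusted deposited p-value of at most 0.05. The cyclopamine lists hold identifiers and symbols, and whether they are of genes or transcripts is uncertain. The fold changes and q-values of the authors were not used, and their p-values were read only to find the filter. None of the 9 member rows carries the significance mark of the tables. Features too low to be listed have no value here, the lowest higher value being 1.01 FPKM, and such filtering sets the direction of every listed value. Read depth is not known, so no interval or floor was given. Coordinates were copied from the tables, and whether these count from 0 or 1 is not stated there.

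The log2 ratio was log2((later FPKM + 0.1)/(uninjured FPKM + 0.1)), and a gene with several listed transcripts at 12 hpi was given that of highest mean FPKM. Genes were matched by Ensembl identifier, and all 6 member identifiers were in a table of 29201 names. The genes named were all members, the 5 genes nearest to *mmp9* by Euclidean distance over its 2 log2 ratios, and listed genes of the pathway and marker lists. Members and lists were chosen with earlier results of these data known. The alternatives were 1 FPKM or nothing added, summed transcripts, only values of at least 5 FPKM in the higher library, only log2 ratios of 2 or more in size, every row counted, and members by annotation. Python 3.11.15, pandas 2.3.3, numpy 2.4.6 and matplotlib 3.10.9 were used, and the ratio, transcript choice and distance were tested on simulated data.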

Additional observations from a re-analysis of the deposited data

How the results depend on the processing

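No paired analysis was possible because there is 1 library per condition, so none could be left out. Of 46 alternatives, 40 changed a value by no more than 1.5-fold, and none turned a direction, which adding the same amount to both libraries cannot do. Some of the 40 could not change a value, such as summing transcripts of a gene with 1 listed transcript or counting every row of a per-gene list. The count of 40 therefore overstates how far the results were tested. With 1 FPKM added, the log2 ratio of *mmp9* was 5.16 at 12 hpi and 5.99 at 4 dpi. The same change gave 2.95 for *adam8b* at 12 hpi, and 2.24 for *adam8b* and 3.60 for *mmp14b* at 4 dpi; the alternatives for single genes other than *mmp9* were added after the data were seen. With members also taken by annotation, 1 gene was listed as lower at 4 dpi, where the symbols gave 0. The ratio of *mmp9* rests on an uninjured level of 0.363 FPKM of unknown depth. Genes outside the lists have no values, and levels with and without cyclopamine could not be compared.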

Other observations

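Taking genes by the annotation of the tables and not by symbol added 2 genes at 4 dpi. *pappaa*, the gene for a metalloproteinase that in mammals cleaves binding proteins of insulin-like growth factors, was listed as lower, with 0.272 FPKM at 4 dpi against 1.84 FPKM in uninjured retina, a log2 ratio of -2.39. *cndp2*, the gene for a cytosolic dipeptidase, was listed as higher, with 27.3 FPKM at 4 dpi against 5.98 FPKM in uninjured retina, a log2 ratio of 2.17. Neither was in a 12 hpi list or a cyclopamine list.

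Among genes above 0 in uninjured retina, the nearest to *mmp9* over both times after *fabp11a* and *crygs2* were *crybb3* and *crlf1a*. *crlf1a*, the gene for a secreted cytokine receptor-like factor, had 43.6 FPKM at 12 hpi and 29.3 FPKM at 4 dpi, against 0.659 FPKM in uninjured retina. *crybb3*, a lens crystallin gene, had 120.5 FPKM at 12 hpi and 58.8 FPKM at 4 dpi, against 1.34 FPKM in uninjured retina. The listed value of both was lower at 4 dpi than at 12 hpi, while that of *mmp9* was higher. These genes were chosen after their values were seen.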
